A study of Mus musculus with 24 samples.

Results

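The miR-17-92 cluster and its paralogues were described through 10 mature miRNAs, chosen by name among the 696 mouse miRNAs of the array: mmu-miR-17-5p, mmu-miR-18a-5p, mmu-miR-19a-3p, mmu-miR-20a-5p, mmu-miR-19b-3p, mmu-miR-92a-3p, mmu-miR-18b-5p, mmu-miR-106b-5p, mmu-miR-93-5p and mmu-miR-25-3p. The species prefix mmu is left out below. Total RNA from eyes of C57BL/6J mice was labelled with Cy3 and hybridised to 24 single-colour Agilent mouse miRNA arrays. A frosted diffuser had covered the right eye from postnatal day 24 for 10 days, a form deprivation that makes the eye elongate (myopia), and the uncovered left eye was the control; the mice were 34 days old. The 6 groups were whole eye control and whole eye myopia (6 arrays each), and retina titled control, retina titled myopia, sclera titled control and sclera titled myopia (3 arrays each). Every group thus came from the same strain and age, with no transgene or drug named in the labels. The series names 15 mice: 6 gave whole eyes, 9 gave retinas, and sclera also came from 9. Which animals, or pools of animals, each array held is not in the labels, and the p-values therefore reflect variation among these arrays, part of which may be technical. Both arms of a tissue came from eyes of the same mice and retina and sclera may share mice, so arrays that limma and the permutation tests treated as independent can share an animal, for which the tests could not account.

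For whole eye, the title, source name and phenotype fields name the same arm, while a sentence of the description names the other, by which each whole-eye arm difference would turn its sign. In retina and sclera the arm given by the title is the reverse of that in all other fields, so these arms are called titled and their direction is unsettled. Comparisons between tissues average over both arms and do not depend on this. The arrays lay on 3 slides scanned on 1 day, each tissue and arm had its own positions on the slides, and position can therefore not be told apart from tissue or arm. Per array, 274 to 401 miRNAs were detected, and no spot was saturated. Tissue markers followed the labels: 4 of 4 neuronal and 3 of 3 photoreceptor miRNAs were called higher in retina than in sclera, and 9 of 9 fibroblast and mesenchymal miRNAs were called lower (limma, adjusted p under 0.05). The summed scaled level of the neuronal list ran from 88.5 to 95.1 on retina arrays and from 1.09 to 6.35 on sclera arrays. That of the skeletal muscle list ran from 3.73 to 7.12 on sclera, 1.32 to 2.37 on whole-eye and 0.242 to 0.426 on retina arrays, with all 4 members detected in each group. That of the cornea and lens epithelium list ran from 9.67 to 18.1 on whole-eye, 1.26 to 9.16 on sclera and 0.140 to 4.96 on retina arrays. Of its 4 members, 4 were called higher in whole eye than in retina and 2 higher than in sclera, and 1 was undetected on all retina titled myopia arrays.

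MicroRNAs are short RNAs that guide Argonaute proteins to messenger RNAs, mainly by pairing of the seed, bases 2 to 8 from the 5′ end, and lower their output. The miR-17-92 cluster is made as a polycistronic transcript that MYC activates and that is known for promoting proliferation and survival. It is needed during development and declines in many tissues as cells leave the cycle. The arrays held no measure of cell division, so the name of the group stands for its known role only.

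The 3 clusters lie on different chromosomes. The array's matches (mm9, as the file headers give it) place miR-17, miR-18a, miR-19a, miR-20a, miR-19b and miR-92a within 803 bases of chromosome 14 (chr14:115442916-115443718), in that order. A paralogous cluster on the X chromosome (chrX:50094922-50095706) holds miR-18b and miR-20b, further hairpins of miR-19b and miR-92a, and miR-106a, for which the array has no probe of its own. The chromosome 5 cluster (chr5:138606604-138607037) holds miR-106b, miR-93 and miR-25, and 3 of 3 of its hairpins lie inside Mcm7, a subunit gene of the replicative helicase (RefSeq, GRCm38.p6). On chromosomes 5 and X, the order in which the files place the 5p and 3p arms of a hairpin is the reverse of RefSeq's, so positions there hold to the hairpin only.

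The 10 mature sequences, all matched in RefSeq (GRCm38.p6), are shown because they fall into 4 seed groups that cut across the clusters, and because the array has to tell near copies apart. Capitals mark the seed. miR-106a-5p and miR-20b-5p of the X cluster are added as the nearest relatives of miR-17-5p and miR-20a-5p.
miR-17-5p: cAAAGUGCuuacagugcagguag
miR-106a-5p: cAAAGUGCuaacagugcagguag
miR-20a-5p: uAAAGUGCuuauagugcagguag
miR-20b-5p: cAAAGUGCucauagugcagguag
miR-106b-5p: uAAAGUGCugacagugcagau
miR-93-5p: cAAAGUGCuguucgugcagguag
miR-18a-5p: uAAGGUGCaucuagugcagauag
miR-18b-5p: uAAGGUGCaucuagugcuguuag
miR-19a-3p: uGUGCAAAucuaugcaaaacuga
miR-19b-3p: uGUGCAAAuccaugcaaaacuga
miR-92a-3p: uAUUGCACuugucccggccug
miR-25-3p: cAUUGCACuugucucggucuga

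The AAAGUGC seed is shared by 4 members from chromosomes 14 and 5, AUUGCAC by miR-92a-3p of chromosomes 14 and X and miR-25-3p of chromosome 5, and the other seeds stay within the chromosome 14 and X clusters. Counting from the 5′ end of the first named, miR-17-5p and miR-106a-5p differ by U10A, miR-19a-3p and miR-19b-3p by U11C, and miR-18a-5p and miR-18b-5p by A18U and A20U. The array reads a miRNA from its 3′ end with DNA probes of graded length. The miR-17-5p probes are the shortest among the members, and are shown 5′ to 3′ with those of miR-18b-5p, since results for both turn on them.
miR-17-5p probe of 12 bases: ctacctgcactg
miR-17-5p probe of 13 bases: ctacctgcactgt
miR-18b-5p probe of 16 bases: ctaacagcactagatg
miR-18b-5p probe of 19 bases: ctaacagcactagatgcac
The miR-17-5p probes cover bases 11 to 23 and 0 bases of the seed. They match miR-106a-5p as perfectly as miR-17-5p, so the 2 cannot be told apart, and miss miR-20a-5p and miR-20b-5p by 1 base. Likewise, signal named miR-19b-3p or miR-92a-3p may come from chromosome 14 or X.

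**Figure D1:**
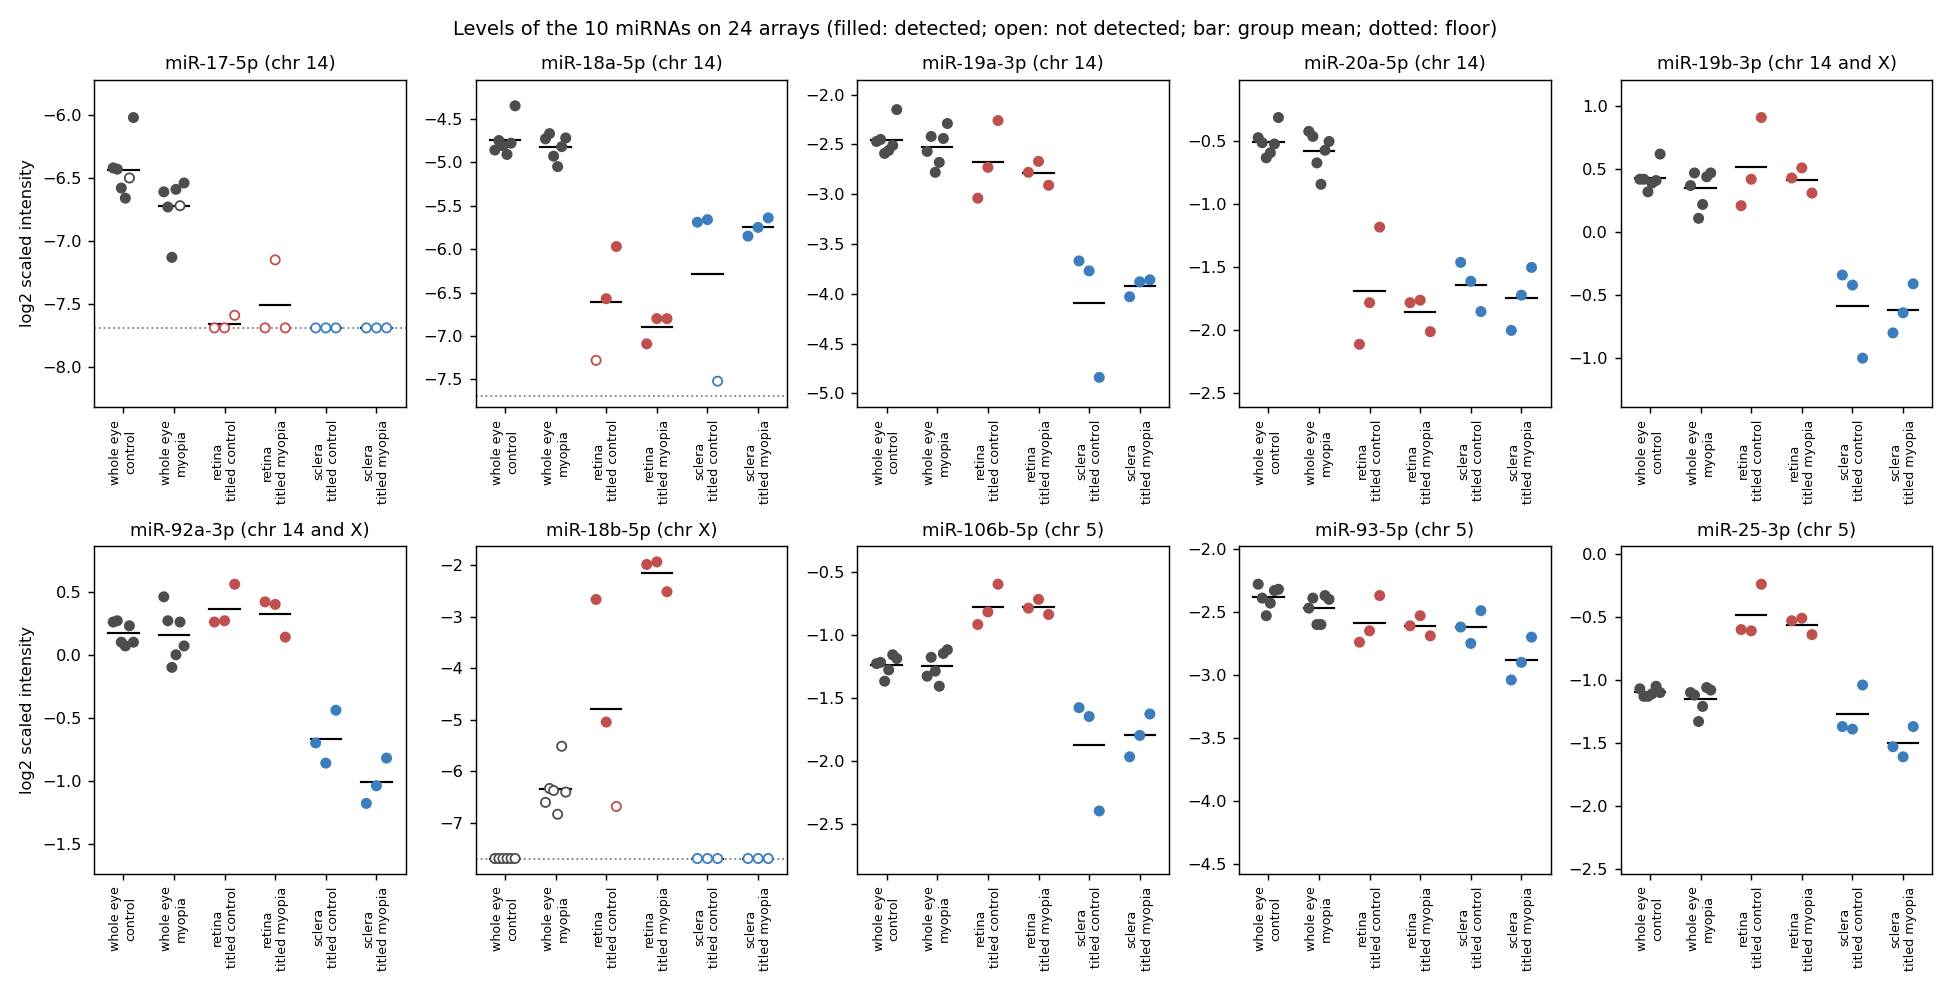
Level of each of the 10 miRNAs on each of 24 arrays, as log2 of the intensity over the array's 75th percentile (vertical axis, a separate range for each miRNA), in the 6 groups (horizontal axis). Filled points are detected, open points are not, bars are group means and the dotted line is the floor at -7.69. miR-17-5p, miR-18a-5p and miR-20a-5p stand highest in whole eye, and the sclera arrays lie lowest for miR-19a-3p, miR-19b-3p, miR-92a-3p and miR-106b-5p.

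Levels below are log2 of a miRNA's intensity relative to the 75th percentile of the miRNAs detected on all 24 arrays, with a floor at -7.69. They serve to compare arrays for 1 miRNA, since probes of different miRNAs are not on a common scale. In bulk tissue, fewer cells of a type and less RNA per cell cannot be told apart. Of the 10 miRNAs, 7 were detected on all 24 arrays (miR-19a-3p, miR-20a-5p, miR-19b-3p, miR-92a-3p, miR-106b-5p, miR-93-5p and miR-25-3p). miR-17-5p was detected on 10 of 12 whole-eye arrays and on none of retina or sclera. miR-18a-5p was detected on 12 of 12 whole-eye, 5 of 6 retina and 5 of 6 sclera arrays, and miR-18b-5p on 5 of 6 retina arrays only.

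Between tissues, members of the chromosome 14 cluster differed from one another. miR-18a-5p and miR-20a-5p were higher in whole eye than in either dissected tissue, by 2.34-fold over retina and 2.22-fold over sclera for miR-20a-5p, and miR-17-5p was detected in whole eye only. The cornea and lens epithelium list was highest in the same tissue, and its part in these levels was not tested. miR-19a-3p, miR-19b-3p and miR-92a-3p differed between whole eye and retina by 0.24, -0.08 and -0.18 on the log2 scale and missed the threshold there, while both tissues lay 1.98-fold to 2.86-fold above sclera. All 10 miRNAs passed the filter on detection for these comparisons (detection on 2 in every 3 arrays of 1 group or more), and limma was fitted to all 426 miRNAs that passed.

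miR-20a-5p, a member of the AAAGUGC seed group, had a lowest, median and highest level of -0.84, -0.51 and -0.31 in whole eye, of -2.11, -1.78 and -1.18 in retina, and of -2.0, -1.66 and -1.46 in sclera. Every whole-eye array lay above every retina and sclera array, and the retina and sclera arrays overlapped. The means were -0.54 ± 0.13 (SD, n = 12), -1.77 ± 0.32 (n = 6) and -1.69 ± 0.21 (n = 6). Whole eye exceeded retina by 1.23 (SE 0.11, limma adjusted p = 1.64e-09) and sclera by 1.15 (SE 0.11, adjusted p = 4.55e-09). Retina and sclera differed by -0.08 (95% interval -0.34 to 0.18, limma adjusted p = 0.56), a difference that passed the threshold at -0.86 when the 75th percentile was taken over all miRNAs (adjusted p = 9.37e-05) and at -0.40 with normexp background correction (adjusted p = 0.0331). The miR-20a-5p probes miss miR-17-5p and miR-20b-5p by 1 base, and the part of cross-hybridisation in these levels was not tested.

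miR-18a-5p, the AAGGUGC member of the cluster, ran from -5.05 to -4.35 in whole eye (median -4.80), from -7.28 to -5.97 in retina (median -6.80) and from -7.52 to -5.64 in sclera (median -5.72). All whole-eye arrays again lay above all others. Whole eye exceeded retina 3.92-fold (log2 1.97, SE 0.21, limma adjusted p = 3.32e-08) and sclera 2.36-fold (log2 1.24, SE 0.21, adjusted p = 2.61e-05). Retina lay below sclera by -0.73 (SE 0.25, adjusted p = 0.00879), with overlapping arrays. The lowest sclera value is that of titled control replicate 3, without which the retina minus sclera difference was -1.14, and the call was lost with retina and sclera fitted alone (limma adjusted p = 0.0593). With normexp, whole eye minus retina fell to 0.40 (adjusted p = 0.313) and whole eye minus sclera turned to -0.91 (adjusted p = 0.00551), where the median of all tested was -0.12 and -1.01.

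miR-17-5p, whose strand gives the cluster its name, was dim. The 12 whole-eye arrays ran from -7.13 to -6.02 with a median of -6.59. It was not detected on any of the 12 dissected-tissue arrays, with 10 of them at the floor. Against these bounds, whole eye was at least 2.01-fold higher than retina and at least 1.66-fold higher than sclera. miR-17-5p passed the detection filter through whole eye alone, so these differences are given as a description with no p-value. With normexp they became 0.12 and -1.11 on the log2 scale, with the brightest probe 0.50 and 0.50, and with the series' own processed values 0.17 and -0.01. The 13-base probe carried the signal, with a median intensity of 12.2 in whole eye, 6.41 in retina and 0.896 in sclera, against 0.986, 0.443 and -2.37 for the 12-base probe. Both probes miss miR-20a-5p and miR-20b-5p by 1 base, and the part of cross-hybridisation in these levels was not tested.

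miR-20b-5p of the X cluster, which differs from miR-20a-5p by U1C and U10C, followed the same order, with levels of -2.24 to -1.71 in whole eye, -3.58 to -2.74 in retina and -3.26 to -2.75 in sclera. It was higher in whole eye than in retina by 1.25 (limma adjusted p = 4.29e-10) and lower in retina than in sclera by -0.32 (adjusted p = 0.0156). Its probes miss miR-20a-5p by 1 base, and the part of cross-hybridisation was not tested.

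The GUGCAAA pair behaved differently from miR-20a-5p. Probes of miR-19a-3p and of miR-19b-3p each miss the other miRNA by 1 base, and the part of cross-hybridisation in these levels was not tested. miR-19b-3p ran from 0.11 to 0.62 in whole eye (median 0.41), from 0.21 to 0.91 in retina (median 0.42) and from -1.0 to -0.34 in sclera (median -0.53). Retina and whole eye overlapped, and every array of both lay above every sclera array. Retina exceeded sclera 2.09-fold (log2 1.06, SE 0.12, limma adjusted p = 4.60e-08) and whole eye exceeded sclera 1.98-fold (log2 0.99, SE 0.10, adjusted p = 2.20e-08). Whole eye minus retina was -0.08 (95% interval -0.29 to 0.14, adjusted p = 0.5), which became 0.47 when all miRNAs set the percentile (adjusted p = 0.00522). Retina minus sclera was then 0.28 and no longer passed (adjusted p = 0.118).

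miR-19a-3p ran from -2.78 to -2.15 in whole eye, -3.04 to -2.26 in retina and -4.84 to -3.67 in sclera, with medians of -2.49, -2.76 and -3.87. Every sclera array lay below all others. Retina exceeded sclera 2.42-fold (log2 1.27, SE 0.16, limma adjusted p = 2.76e-07) and whole eye exceeded it 2.86-fold (log2 1.52, SE 0.14, adjusted p = 3.23e-09). With normexp background correction both differences turned sign, to -0.32 and -0.12, and neither then passed the threshold. Whole eye minus retina, 0.24 (95% interval -0.05 to 0.53, limma adjusted p = 0.112), passed at 0.47 with these tissues fitted alone (adjusted p = 1.14e-04), at 0.31 without sclera titled control replicate 3 (adjusted p = 0.00881) and at 0.34 without retina titled control replicate 3 (adjusted p = 0.0288).

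miR-92a-3p, the AUUGCAC member at the end of the cluster, ran from -0.10 to 0.46 in whole eye, 0.14 to 0.56 in retina and -1.18 to -0.44 in sclera, with medians of 0.16, 0.34 and -0.84. The sclera arrays lay apart below the rest. Retina exceeded sclera 2.27-fold (log2 1.18, SE 0.10, limma adjusted p = 4.61e-10) and whole eye exceeded it 2.01-fold (log2 1.0, SE 0.09, adjusted p = 9.11e-10). Whole eye minus retina was -0.18 (95% interval -0.36 to 0.00, adjusted p = 0.0586) and 0.37 with the percentile over all miRNAs (adjusted p = 0.00156). It passed at -0.20 without whole eye myopia replicate 1 (adjusted p = 0.0259), at -0.20 without retina titled control replicate 1 (adjusted p = 0.0492) and at -0.22 without retina titled myopia replicate 3 (adjusted p = 0.0286).

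In the chromosome 5 cluster, miR-106b-5p and miR-25-3p were highest in retina while miR-93-5p, transcribed between them, was nearly level. miR-106b-5p ran from -1.41 to -1.12 in whole eye, -0.92 to -0.60 in retina and -2.40 to -1.58 in sclera, so that no array of 1 tissue overlapped another's. Retina exceeded sclera 2.08-fold (log2 1.06, SE 0.11, limma adjusted p = 1.09e-08), and whole eye lay between, below retina by -0.46 (adjusted p = 1.14e-04) and above sclera by 0.59 (adjusted p = 8.29e-06). When all miRNAs set the percentile, whole eye minus retina was 0.09 (adjusted p = 0.58) and retina minus sclera 0.27 (adjusted p = 0.106). With normexp, whole eye minus sclera was 0.11 (adjusted p = 0.415).

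miR-25-3p ran from -1.33 to -1.05 in whole eye, -0.64 to -0.24 in retina and -1.61 to -1.04 in sclera. All retina arrays lay above the others, and whole eye and sclera overlapped. Retina exceeded sclera 1.82-fold (log2 0.86, SE 0.08, limma adjusted p = 9.37e-10), whole eye lay below retina by -0.60 (adjusted p = 3.64e-08) and above sclera by 0.26 (adjusted p = 0.00122). With all miRNAs setting the percentile, these 3 differences shrank to 0.08, -0.05 and 0.03 and none passed.

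miR-93-5p ran from -2.60 to -2.28 in whole eye, -2.74 to -2.37 in retina and -3.04 to -2.49 in sclera, overlapping throughout. Whole eye exceeded retina by 0.17 (SE 0.07, limma adjusted p = 0.0196) and sclera by 0.32 (SE 0.07, adjusted p = 1.67e-04). Retina minus sclera was 0.15 (95% interval -0.01 to 0.31, adjusted p = 0.065), and -0.63 with the percentile over all miRNAs (adjusted p = 1.03e-05). Whole eye minus sclera was then 0.09 (adjusted p = 0.412), and -0.40 with normexp (adjusted p = 0.0408). Without retina titled control replicate 1, retina minus sclera passed at 0.19 (limma adjusted p = 0.0294) and whole eye minus retina did not at 0.13 (adjusted p = 0.0787). Retina minus sclera also passed at 0.20 without sclera titled myopia replicate 3 (adjusted p = 0.0212), and whole eye minus retina missed at 0.15 without retina titled myopia replicate 3 (adjusted p = 0.0513).

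**Figure D2:**
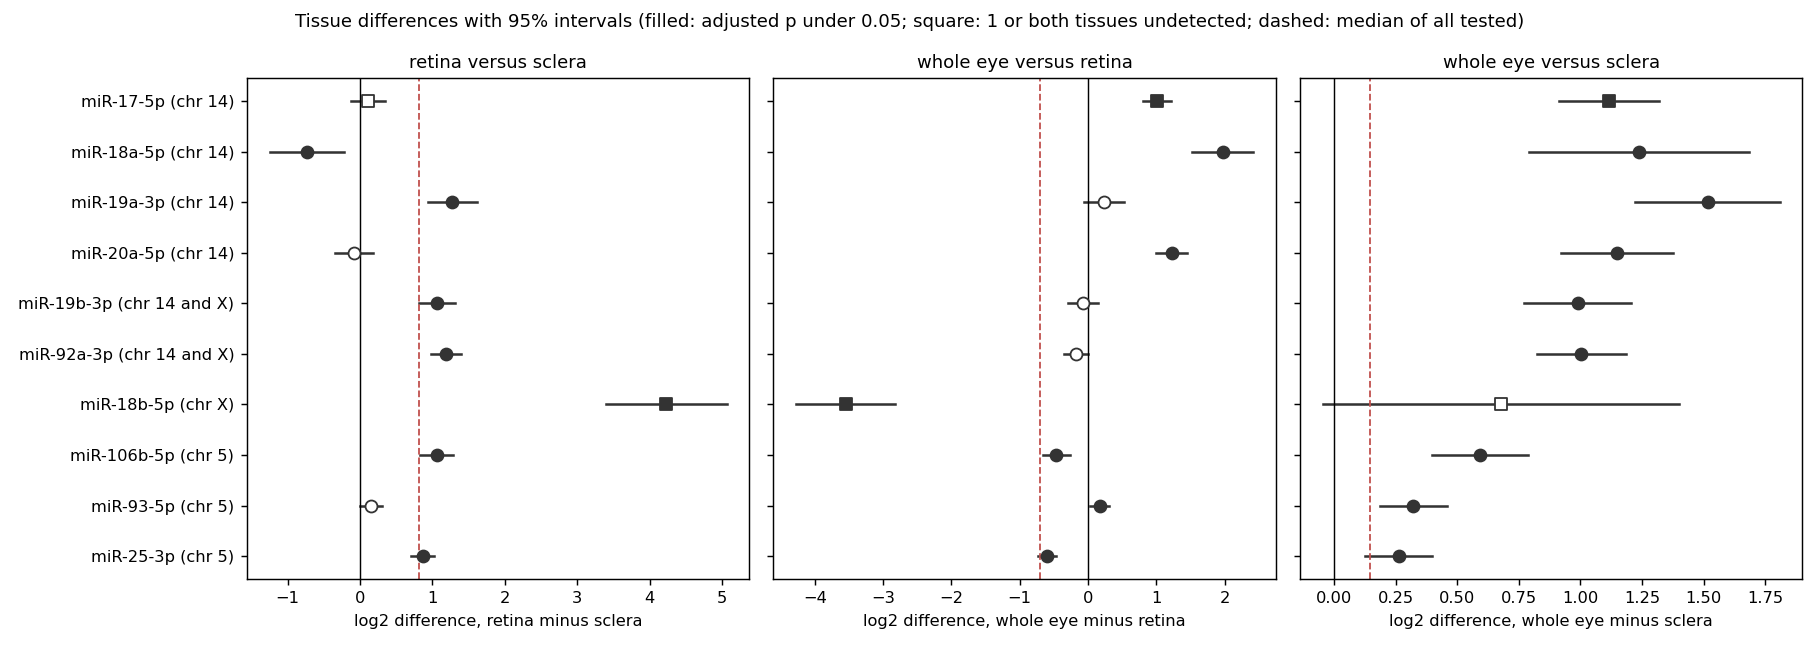
Difference of log2 level between 2 tissues (horizontal axis) for each of the 10 miRNAs (vertical axis), with 95% intervals from limma. Filled points passed an adjusted p of 0.05, squares mark miRNAs undetected throughout at least 1 of the 2 tissues, whose filling is not read as a test, and the dashed line is the median of all 426 miRNAs tested. miR-17-5p, miR-18a-5p and miR-20a-5p lie right of 0 for whole eye versus retina, where that median is -0.70.

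miR-17-5p and miR-18b-5p passed the filter through 1 tissue only, and counts are given over the other 8 members. Of these, 5 were called higher in retina than in sclera and 1 lower, where 58.7% of all tested miRNAs were called higher and 30.5% lower. Between whole eye and retina 3 of 8 were called higher and 2 lower, against 23.0% and 65.0% of all, and between whole eye and sclera 8 of 8 higher and 0 lower, against 40.1% and 30.8%. The median of the 8 was 0.96 for retina minus sclera, 0.05 for whole eye minus retina and 1.0 for whole eye minus sclera, beside 0.81, -0.70 and 0.15 for all tested. Called in either direction were 89.2%, 88.0% and 70.9% of all tested. These values depend on the scaling: the median of all tested for retina minus sclera was 0.08 with the percentile over all miRNAs, 0.14 after quantile normalisation and -0.85 with normexp. Relative to the median of all, miR-20a-5p lay at 1.93 for whole eye minus retina and at -0.89 for retina minus sclera, and miR-25-3p at 0.10 and 0.05. In 5 of 8 members every retina array exceeded every sclera array (44.6% of all tested, and 25.4% entirely below), in 6 of 8 every whole-eye array exceeded every sclera array (25.4%, and 20% below), and in 2 of 8 every whole-eye array exceeded every retina array (16.9%), with 2 of 8 entirely below (40.6%).

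Unequal change between members of a cluster could be measured without any scaling between arrays, as the log2 ratio of 2 members on the same array. This measure was chosen after the levels had been seen, over 9 pairs of members of 1 cluster detected on all arrays and 3 tissue comparisons, with p-values adjusted over those 27 tests. Signal named miR-19b-3p or miR-92a-3p may come from chromosome 14 or X, so ratios with these 2 need not reflect the chromosome 14 cluster alone. The ratio of miR-20a-5p to miR-19b-3p, which share the chromosome 14 transcript, was -2.23 ± 0.09 (SD, n = 6) in retina, -1.09 ± 0.13 (n = 6) in sclera and -0.93 ± 0.08 (n = 12) in whole eye. It ranged from -2.32 to -2.10 on retina arrays, from -1.20 to -0.86 on sclera arrays and from -1.06 to -0.78 on whole-eye arrays, so that retina stood apart below both. Retina lay below sclera by -1.14 (exact permutation test, two-sided, p = 0.00216, adjusted 0.00343) and whole eye above retina by 1.30 (p = 0.000108, adjusted 0.000417, both the smallest p that the arrays allow). The ratio of miR-20a-5p to miR-92a-3p gave -1.26 and 1.41 for the same differences, with the same p-values. Whole eye minus sclera was 0.16 for the first ratio (exact permutation test, adjusted p = 0.00857), with overlapping arrays, and -0.25 with normexp. Pairs with miR-19a-3p differed too. Perfect matches of the miR-19a-3p and miR-20a-5p probes lie on chromosome 14 only. The miR-19a-3p probes miss miR-19b-3p by 1 base, and those of miR-20a-5p miss miR-17-5p and miR-20b-5p by 1 base. The part of cross-hybridisation in their ratio was not tested. The ratio of miR-19a-3p to miR-20a-5p ran from -1.08 to -0.90 in retina, -2.98 to -2.03 in sclera and -2.14 to -1.78 in whole eye. Retina exceeded sclera by 1.35 (exact permutation p = 0.00216, adjusted 0.00343), and whole eye minus retina was -0.99 (p = 0.000108, adjusted 0.000417). With normexp, both miRNAs lay lower in retina than in sclera by similar amounts, as given above, so most of this ratio's retina minus sclera difference was lost. The ratio of miR-19a-3p to miR-19b-3p, from -2.95 to -2.76 in whole eye and from -3.25 to -3.15 in retina, was 0.32 higher in whole eye (exact permutation p = 0.000108, adjusted 0.000417). That of miR-19a-3p to miR-92a-3p was 0.42 higher (adjusted p = 0.00109, exact permutation test). Since probes of miR-19a-3p and miR-19b-3p differ by 1 base, cross-hybridisation may enter their ratio, and this was not tested. The ratio of miR-19b-3p to miR-92a-3p differed by 0.10 between whole eye and retina (exact permutation test, adjusted p = 0.206).

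Within the chromosome 5 cluster, the ratio of miR-106b-5p to miR-93-5p was 1.82 ± 0.03 (SD, n = 6) in retina, 0.91 ± 0.40 (n = 6) in sclera and 1.18 ± 0.07 (n = 12) in whole eye. Retina exceeded sclera by 0.91 (exact permutation p = 0.00216, adjusted 0.00343), and whole eye lay below retina by -0.63 (p = 0.000108, adjusted 0.000417). The ratio of miR-93-5p to miR-25-3p was -2.08 ± 0.05 in retina, -1.36 ± 0.10 in sclera and -1.30 ± 0.06 in whole eye. Retina again stood apart from both, by -0.71 against sclera and with whole eye 0.77 above it, at the same p-values, while whole eye and sclera differed by 0.06 (exact permutation p = 0.136, adjusted 0.175). These ratios show unequal change in the signal of neighbouring miRNAs, not which member of a pair changed. They remove the scaling between arrays only, and the part of hybridisation differences between arrays was not tested.

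miR-18b-5p of the X cluster had the widest spread. On the retina arrays it read -2.66, -5.04 and -6.68 in titled control replicates 1 to 3 and -1.98, -1.93 and -2.51 in titled myopia replicates 1 to 3, and it was not detected on the third titled control array. It was not detected on any of the 12 whole-eye and 6 sclera arrays. Against these bounds, retina was at least 14.4-fold higher than sclera and at least 9.98-fold higher than whole eye. miR-18b-5p passed the detection filter through retina alone, so these differences are given as a description with no p-value, and they depend on the processing. The retina minus sclera difference was 4.23 on the log2 scale, 2.11 with the brightest probe, 1.73 in the series value table, -0.49 with normexp and 3.10 on slide 3 alone. Whole eye minus retina was -3.55, and -2.11, -1.89, -0.70 and -2.44 in the same order.

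The 4 nested probes of miR-18b-5p, 16 to 19 bases long, gave close intensities on every retina array, from 97.5 to 129 on titled myopia replicate 1 and from 3.45 to 5.38 on titled control replicate 3. The 4 retina arrays with its highest levels were also those with the brightest 10 corner control spots, though levels did not keep the order of the corner signal throughout. The corner spots averaged 451, 196 and 248 on the retina titled control arrays and 487, 576 and 373 on the titled myopia arrays, 104 to 163 on sclera, 137 to 230 on whole eye control and 226 to 487 on whole eye myopia arrays. On the 6 whole eye myopia arrays miR-18b-5p lay above the floor, from -6.83 to -5.51, though not detected, and on the 6 control arrays at the floor. The whole eye myopia array with a corner signal of 487 read -6.33, and the retina titled myopia array with the same signal -1.98. miR-18a-3p, the minor strand of the chromosome 14 hairpin, read -5.60, -7.69 and -7.69 in retina titled control and -5.37, -4.74 and -6.12 in titled myopia, and was detected on 2 arrays. For miR-18a-5p, whose sequence is nearest to miR-18b-5p, the highest retina level, -5.97, fell on the array with a corner signal of 248, while the highest of whole eye control, -4.35, and of whole eye myopia, -4.67, fell on the arrays with their groups' brightest corner spots, 230 and 487. The part of the corner spot signal in the miR-18b-5p values was not tested.

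**Figure D3:**
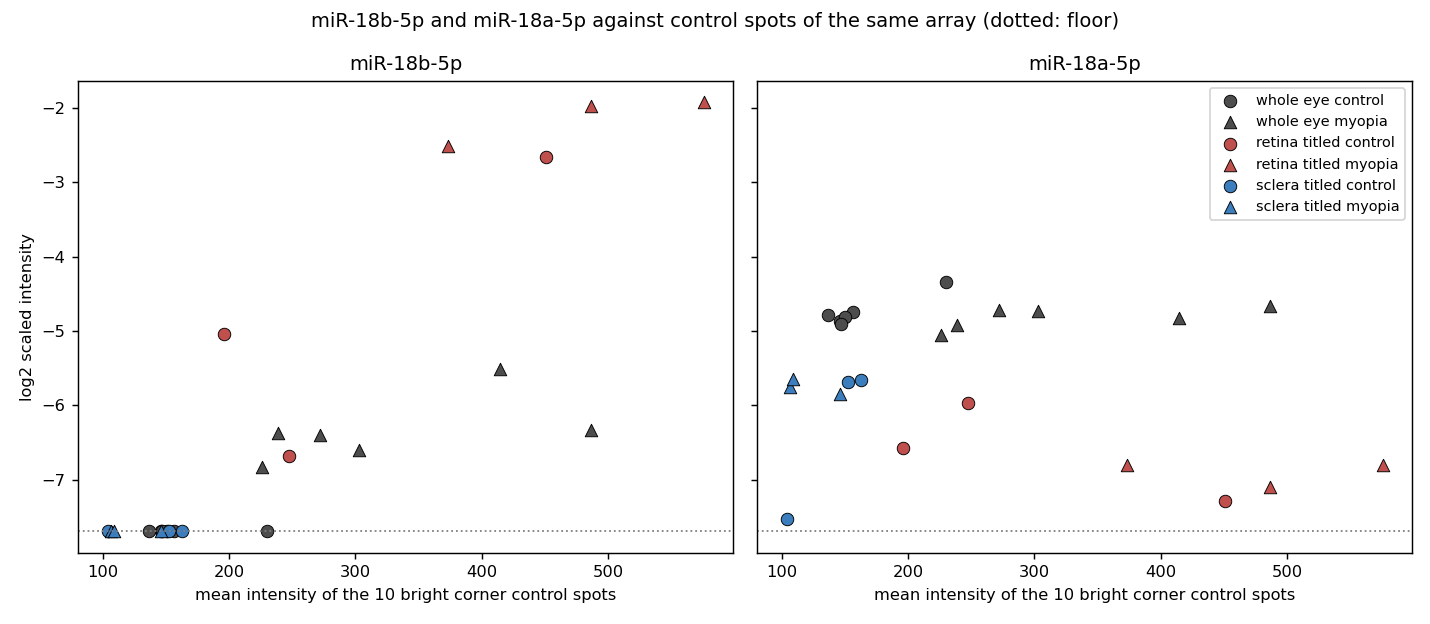
Level of miR-18b-5p (left) and miR-18a-5p (right) on 24 arrays as log2 of scaled intensity, against the mean intensity of the 10 bright corner control spots of the same array. Circles are control and triangles myopia arrays by title, and the dotted line is the floor. The 4 retina arrays with corner signals of 373 to 576 hold the 4 highest miR-18b-5p levels, while sclera arrays at 104 to 163 stay at the floor.

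Between the arms of each tissue, 0 of the members were called. In whole eye 9 of 10 members passed the filter, miR-18b-5p being undetected, and 0 were called at a limma adjusted p under 0.05 (0 also at an unadjusted p under 0.05), where 10.3% of all 341 tested miRNAs were called, all of them higher. The differences of myopia minus control ran from -0.20 to 0.08 with a median of 0.01, beside 0.08 for all tested. Arm means in this fit are relative to the 288 miRNAs detected on all whole-eye arrays. miR-20a-5p averaged 0.07 ± 0.08 (SD, n = 6) in myopia and 0.06 ± 0.07 in control, a difference of 0.01 (95% interval -0.10 to 0.13, limma adjusted p = 0.903). miR-19b-3p differed by 0.00 (95% interval -0.11 to 0.11), miR-18a-5p by 0.01 (-0.15 to 0.17), miR-93-5p by -0.01 (-0.10 to 0.08) and miR-25-3p by 0.03 (-0.08 to 0.14). miR-106b-5p differed by 0.08 (-0.02 to 0.18, adjusted p = 0.308) and miR-17-5p by -0.20 (-0.44 to 0.05, adjusted p = 0.308), and the arms overlapped for all 9 (of all tested, 9.68% had every myopia array above every control array and 0.0% below). After quantile normalisation miR-17-5p lay at -0.68 (adjusted p = 0.00594) and miR-18a-5p at -0.50 (adjusted p = 0.0104), both past the threshold, and the calls over all tested went from 35 higher and 0 lower to 32 higher and 64 lower. For miR-18b-5p the arms differed by 0.89 without the detection filter and by 1.35 with all 24 arrays. No whole-eye array detected it and the control arrays lay at the floor, so these values are given with no p-value.

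In retina 9 of 10 members passed the filter, miR-17-5p being undetected, and 0 were called (limma, adjusted p under 0.05; 1 at an unadjusted p under 0.05), as were 0.0% of all 396 tested. miR-18b-5p had the values given above, and its 3 titled myopia arrays all lay above its 3 titled control arrays, as happened for 8.33% of all tested. The difference was 2.60 (95% interval 0.09 to 5.11, limma adjusted p = 0.537). It passed the threshold without retina titled control replicate 1 (3.56, limma adjusted p = 0.0257). With the spread taken from all 24 arrays the difference was 2.65. That spread includes whole eye control and sclera arrays, on which miR-18b-5p lay at the floor throughout, so this value is given with no p-value. The other 8 differences were all negative, from -0.34 for miR-18a-5p to -0.06 for miR-106b-5p, beside a median of -0.07 over all tested, and none of the 8 had every array of 1 arm below the other (2.02% of all tested).

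The retina titled control arrays spread more than the titled myopia arrays for these 8 miRNAs. miR-20a-5p read -2.11, -1.78 and -1.18 in titled control replicates 1 to 3, and -1.78, -1.76 and -2.01 in titled myopia. Titled control replicate 3 was the highest and replicate 1 the lowest of the 6 arrays. The same 2 arrays held the highest and lowest values of miR-19a-3p (-2.26 and -3.04), miR-19b-3p (0.91 and 0.21), miR-106b-5p (-0.60 and -0.92), miR-93-5p (-2.37 and -2.74) and miR-18a-5p (-5.97 and -7.28). The summed level of the cornea and lens epithelium list was 0.140, 1.48 and 4.96 on titled control replicates 1 to 3 and 0.653, 0.585 and 0.617 on titled myopia, so that replicates 1 and 3 were again the lowest and highest. Its part in these levels was not tested.

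**Figure D4:**
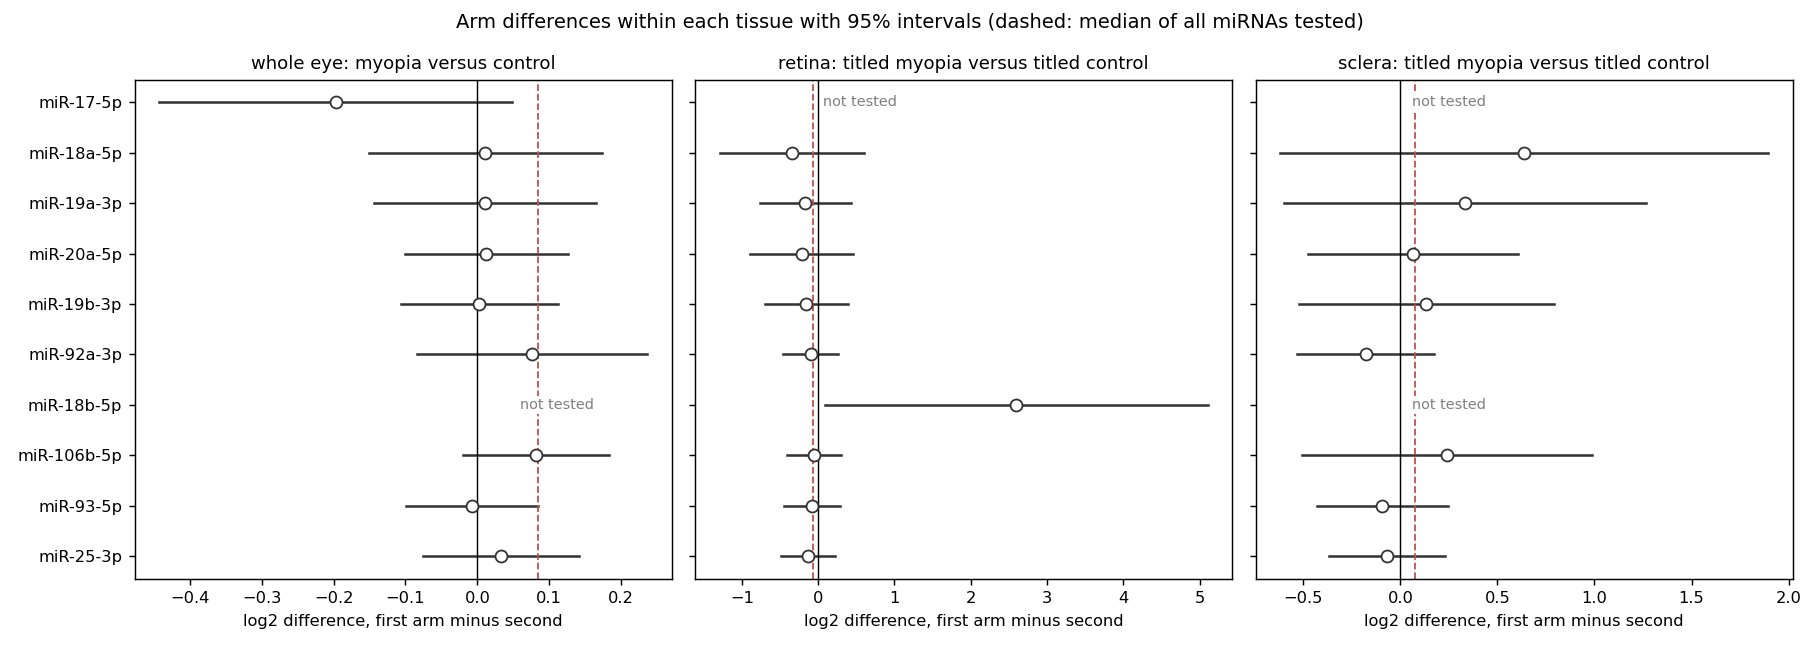
Difference of log2 level between arms (horizontal axis, first arm minus second) within whole eye (n = 6 per arm), retina and sclera (n = 3 per arm) for each of the 10 miRNAs (vertical axis), with 95% intervals from limma. The dashed line is the median of all miRNAs tested in that tissue. No member passed an adjusted p of 0.05, the whole-eye intervals lie between -0.44 and 0.24, and miR-18b-5p in retina lies at 2.60.

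In sclera 8 of 10 members passed the filter, miR-17-5p and miR-18b-5p being undetected, and 0 were called (limma, adjusted p under 0.05; 0 at an unadjusted p under 0.05), as were 0.0% of all 311 tested. For 0 of the 8 did the arms separate, while 9.65% of all tested had every titled myopia array above every titled control array and 3.54% below. The differences ran from -0.18 for miR-92a-3p to 0.64 for miR-18a-5p (95% interval -0.62 to 1.90), with a median of 0.10 beside 0.08 for all. The positive ones rested on titled control replicate 3, the array with the fewest detected miRNAs (274) of the series. Without it, miR-18a-5p went from 0.64 to -0.05, miR-19a-3p from 0.33 to -0.18, miR-106b-5p from 0.24 to -0.16, miR-19b-3p from 0.13 to -0.21 and miR-20a-5p from 0.07 to -0.18.

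That array lay outside the range of the other 5 sclera arrays for 7 of the 8 members above the floor, 4 low and 3 high. miR-19a-3p read -4.84, below the others (-4.03 to -3.67), miR-18a-5p -7.52 (others -5.85 to -5.64), miR-106b-5p -2.40 (others -1.97 to -1.58) and miR-19b-3p -1.0 (others -0.80 to -0.34). miR-92a-3p at -0.44 (others -1.18 to -0.70), miR-25-3p at -1.04 (others -1.61 to -1.37) and miR-93-5p at -2.49 (others -3.04 to -2.62) lay above the range. G and C make up 34.8% to 43.5% of the 4 low miRNAs and 50% to 57.1% of the 3 high ones, while miR-20a-5p, with 39.1%, lay within the range at -1.85. miR-92b-3p, an AUUGCAC relative with 63.6% G and C, read -2.90 there against -4.99 to -3.94. The part of base composition in the level of this array was not tested. Leaving it out moved the retina minus sclera difference of miR-19a-3p from 1.27 to 0.99, that of miR-19b-3p from 1.06 to 0.87 and that of miR-106b-5p from 1.06 to 0.83.

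**Figure D5:**
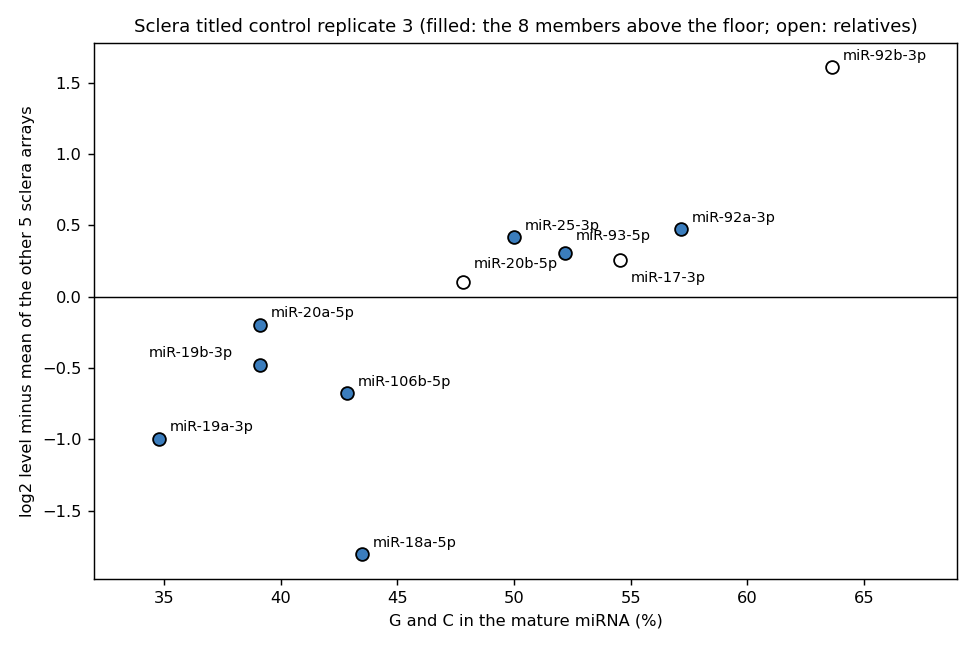
Deviation of sclera titled control replicate 3 from the mean of the other 5 sclera arrays (log2 level, vertical axis) against the percentage of G and C in the mature miRNA (horizontal axis). Filled points are the 8 members above the floor and open points are miR-20b-5p, miR-17-3p and miR-92b-3p. miR-19a-3p lies at -0.99 and miR-18a-5p at -1.81, with miR-92a-3p at 0.48 and miR-92b-3p at 1.61.

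The other products of these hairpins and the same-seed relatives miR-92b-3p and miR-32-5p were read from a list of 20, of which the array holds 12. On all 24 arrays 2 of the 12 were detected, miR-20b-5p and miR-17-3p, and on none 5 of 12 were, among them miR-363-3p of the X cluster. Of the 12, 7 passed the filter for the tissue comparisons. Among these, 4 (miR-18a-3p, miR-20a-3p, miR-106b-3p and miR-32-5p) were detected on no sclera array and passed through retina alone, so their calls are not counted. Of the others, miR-17-3p was called higher in retina than in sclera. miR-20b-5p and miR-92b-3p (log2 -1.01, limma adjusted p = 0.00307) were called lower, with overlapping arrays. Over all tested, 58.7% were called higher and 30.5% lower in this comparison. miR-17-3p, the partner strand of miR-17-5p, ran from -3.87 to -3.57 in retina, -4.32 to -4.05 in whole eye and -5.62 to -4.96 in sclera, with no overlap. Retina exceeded sclera 2.74-fold (log2 1.45, SE 0.07, limma adjusted p = 4.02e-14) and whole eye lay below retina by -0.49 (adjusted p = 2.20e-07). The 3p strand of this hairpin was thus detected on all 6 retina arrays, on which its 5p strand was not detected. The 5p probes have only 12 and 13 bases and the 2 strands are not on a common scale, so their amounts cannot be compared. miR-32-5p was detected on 4 of 6 retina, 2 of 12 whole-eye and 0 of 6 sclera arrays. Between arms 0 of these products were called in any tissue.

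Of the 230 other miRNAs detected on all 24 arrays, the 3 whose levels ran most like the mean of the 7 always-detected members were miR-135a-5p (Pearson r = 0.941 over 24 arrays), miR-218-5p (r = 0.939) and miR-34c-5p (r = 0.931). These r are descriptions over arrays that fall into 3 tissues and share the scaling. The centred mean of the 7 members was 0.22 in whole eye, 0.17 in retina and -0.61 in sclera. miR-135a-5p averaged -2.90 in whole eye, -2.77 in retina and -4.14 in sclera.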

How the data were processed

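Members and marker lists were chosen with earlier results of these data known. For each spot the deposited scanner output gives an intensity that, per the file headers, Feature Extraction had background-subtracted, with a detection call per miRNA. The submitters' processing notes name that software as version 11. The series value table gives log2 values deposited by the authors, whose handling of dim probes is unknown. No column was left unmapped to a sample. Here spots were averaged per probe, probes summed per miRNA, and sums scaled to each array's 75th percentile of the miRNAs that all arrays of the fit detected. Values under the floor, the median array's dimmest detected miRNA, were raised to it before taking log2. limma 3.58.1 in R 4.3.3 compared arms within a tissue, or tissues over all 24 arrays in 6 groups, with Benjamini-Hochberg adjustment over all tested miRNAs. Where no array of a group detected a miRNA, the fold is a bound, the brighter group's mean against a mean over the dim arrays. Each dim array entered with its dimmest detected miRNA or the miRNA's own level after the floor, whichever was higher. Every member is named in each comparison; other miRNAs were named by the rule of highest correlation with the member mean. The fitting code was tested on simulated data. Arrays of a group correlated at r = 0.936 to 0.998, none identical. The number of arrays limits precision. Alternatives covered scaling, background correction, probe summary, filter, slide, replicate block and left-out arrays. Permutation tests used scipy 1.17.1 in Python 3.11.15.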

Additional observations from a re-analysis of the deposited data

Results flagged for a closer look

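In a group of 6 arrays, 5 values of the members stood apart from the other 5 arrays by more than Dixon's 95% critical value. Of the 19 groups examined, chance flags about 1 in 20. On whole eye control replicate 6 this held for miR-17-5p at -6.02 (next highest array -6.42), miR-18a-5p at -4.35 (next -4.75), miR-19a-3p at -2.15 (next -2.45) and miR-19b-3p at 0.62 (next 0.42). miR-92a-3p (0.10), miR-106b-5p (-1.19) and miR-25-3p (-1.10) lay within the range of the other control arrays. This array also had the highest corner control signal of its group, 230, against 137 to 156 on the others, and the part of that in the levels was not tested. On whole eye myopia replicate 3, miR-17-5p was lowest at -7.13 (next -6.73).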

How the results depend on the processing

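Values are log2 differences unless called counts, and the cause of each change was not tested. Counts of members called leave out miR-17-5p and miR-18b-5p in the tissue comparisons, since each passed the filter there through 1 tissue only. In whole eye arms the count moved from 0 to 2 after quantile normalisation, 1 without the filter and 1 with all 24 arrays (over all tested, from 10.3% to 28.2%, 5.6% and 7.04%). The calls without the filter and with all 24 arrays were of miR-18b-5p, not detected on any whole-eye array, and are not read as a test. In retina arms the count moved from 0 to 1 with all 24 arrays (over all tested, from 0 to 51, or 12.0%). That call was of miR-18b-5p, for which whole groups at the floor enter the spread, and is not read as a test. For whole eye versus retina, 3 of 8 members were called higher and 2 lower, and 4 of 7 were called with detection on every array required (over all tested, 88.0% and 89.0%). With normexp and on slide 3 alone, 38.3% and 55.9% of all tested were called. Leaving out 1 array gave 0 calls of members in whole eye arms, 0 to 1 in retina arms and 0 in sclera arms. The call in retina arms was of miR-18b-5p without titled control replicate 1, and the share over all tested was not counted in these runs. In the tissue comparisons, calls of miR-93-5p, miR-19a-3p and miR-92a-3p changed as given above. The labels do not say whether replicate numbers pair eyes of 1 mouse, and the correlations did not settle it, since not every one passed 0.1 (same-numbered correlations -0.22 to 0.49 in whole eye, -0.22 to 0.64 in retina, -0.37 to -0.10 in sclera). With the replicate block, 0 members were called between arms in any tissue, where 13.2%, 0.0% and 0.0% of all tested were called in whole eye, retina and sclera. In the tissue comparisons the call lost was that of miR-93-5p in whole eye versus retina (0.16, limma adjusted p = 0.0847). Over all tested, 89.4% were then called for retina versus sclera, 84.7% for whole eye versus retina and 68.1% for whole eye versus sclera.

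Signs turned as follows. In whole eye arms with all 24 arrays, miR-18a-5p went to -0.08, miR-19a-3p to -0.08, miR-20a-5p to -0.07, miR-92a-3p to -0.01 and miR-25-3p to -0.05; with the brightest probe, miR-19a-3p to -0.02, miR-20a-5p to -0.02 and miR-25-3p to -0.01. With the percentile over all miRNAs, miR-18a-5p, miR-19a-3p and miR-20a-5p went to -0.20, miR-92a-3p and miR-106b-5p to -0.13 and miR-25-3p to -0.18. After quantile normalisation, miR-18a-5p went to -0.50, miR-19a-3p to -0.15, miR-20a-5p to -0.04, miR-106b-5p to -0.02 and miR-25-3p to -0.10. The series value table gave -0.01 for miR-19a-3p and 0.02 for miR-93-5p, and scaling to total signal -0.11 for miR-18a-5p. Slide 1 gave 0.08 for miR-17-5p, slide 2 gave -0.01 for miR-20a-5p and miR-25-3p, and slide 3 gave -0.12 for miR-18a-5p, -0.04 for miR-19a-3p and 0.05 for miR-93-5p. In retina arms, quantile normalisation gave 0.09 for miR-19b-3p and 0.04 for miR-92a-3p, and the brightest probe 0.06 for miR-106b-5p. In sclera arms, normexp gave -0.08 for miR-18a-5p, -0.05 for miR-19a-3p and -0.03 for miR-20a-5p, the value table -0.01 for miR-20a-5p, and all 24 arrays -0.10 for miR-20a-5p and -0.03 for miR-19b-3p.

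For retina versus sclera, normexp gave -1.23 for miR-17-5p, -0.32 for miR-19a-3p, -0.49 for miR-18b-5p and -0.55 for miR-93-5p. miR-93-5p was -0.63 with the percentile over all miRNAs and -0.58 after quantile normalisation, miR-17-5p -0.18 in the value table, miR-20a-5p 0.05 with the brightest probe and 0.08 on slide 3, and miR-18a-5p 0.20 on slide 3. For whole eye versus retina, the percentile over all miRNAs gave 0.47 for miR-19b-3p, 0.37 for miR-92a-3p and 0.09 for miR-106b-5p, these tissues alone 0.16 and 0.05 for the first and second, and slide 1 0.03 for miR-19b-3p. For whole eye versus sclera, normexp gave -1.11 for miR-17-5p, -0.91 for miR-18a-5p, -0.12 for miR-19a-3p, -1.19 for miR-18b-5p, -0.40 for miR-93-5p, -0.02 for miR-25-3p and -0.25 for the ratio of miR-20a-5p to miR-19b-3p, and the value table -0.01 for miR-17-5p and -0.16 for miR-18b-5p.

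Leaving out 1 array spanned both signs in whole eye arms for miR-18a-5p (-0.01 to 0.08), miR-19a-3p (-0.03 to 0.06), miR-20a-5p (-0.01 to 0.04) and miR-93-5p (-0.02 to 0.01); in sclera arms for miR-18a-5p (-0.05 to 0.89), miR-19a-3p (-0.18 to 0.57), miR-20a-5p (-0.18 to 0.21), miR-19b-3p (-0.21 to 0.28) and miR-106b-5p (-0.16 to 0.42); and for miR-20a-5p in retina versus sclera (-0.23 to 0.03) and miR-19b-3p in whole eye versus retina (-0.15 to 0.02). The retina ratio differences of 4 pairs kept their sign in every alternative run. These pairs were miR-20a-5p with miR-19b-3p, miR-20a-5p with miR-92a-3p, miR-106b-5p with miR-93-5p and miR-93-5p with miR-25-3p. The pair of miR-19a-3p with miR-20a-5p, which lost most of its retina minus sclera difference with normexp, is not among them. miR-18b-5p was not detected on any whole-eye or sclera array, so its difference between these tissues is given as a description with no p-value. Whole eye minus sclera was 0.65 without retina titled control replicate 1 or 3. miR-17-5p in every tissue and miR-18a-5p in retina and sclera lie near background, which limits their values. The same holds for miR-18b-5p outside retina and on retina titled control replicate 3.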
